A study of Macaca mulatta and Mus musculus with 5 samples.

Results

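In 2 droplet channels of cells sorted from the meninges of rhesus macaques, 108 barcodes carried the transcripts of complement C1q and are described here. A barcode was taken when it had at least 300 detected genes, at least 5 unique molecular identifiers (UMIs, each a captured transcript) of C1QB and at least 1 of C1QC. Channel 1 gave 54 of 4068 barcodes with 300 genes (1.33%, exact 95% binomial interval 0.999 to 1.73%), and channel 2 gave 54 of 4308 (1.25%, 0.943 to 1.63%). The same tables hold a larger myeloid population with at least 10 UMIs of CFD, at least 1 of AIF1 and under 5 of C1QB, called CFD-high cells below. It had 136 barcodes in channel 1 and 144 in channel 2 and is the reference for the comparison.

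All animals were female Chinese rhesus macaques 4 to 8 years old, with no treatment, genotype or time point given, so every cell described shares that background. The sort is written CD45–CD11b–CD3–, where the dashes can be read as separators or as minus signs, and 8000 cells were loaded per channel of the 10x 3′ assay. Channels of spleen from macaques of the same description, also numbered 1 and 2, and a mouse library complete the series. The labels do not say whether the 2 meninges channels hold different animals, so p-values measure only the spread between channels. With 1 residual degree of freedom per gene and a prior of 29.6, that spread is mostly borrowed from other genes.

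C1q is the recognition molecule of the classical complement pathway. It is built from the products of C1QA, C1QB and C1QC, and tissue macrophages are a main source of it. The meninges hold border-associated macrophages, long-lived cells of the dura and the leptomeninges that are known for scavenger receptors such as CD163 and the mannose receptor MRC1. Monocytes carry S100A4, S100A6 and, in the patrolling subset, CX3CR1, TCF7L2 and the Fc receptor CD16. CFD encodes complement factor D, the protease that starts the alternative pathway.

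The members were chosen by their C1QB and C1QC counts, and the CFD-high cells by CFD, AIF1 and C1QB, so the values of these genes are given as a description with no test. C1QB ran from 5 to 55 UMIs per cell in channel 1 (median 20.5) and from 5 to 79 in channel 2 (median 18). C1QC ran from 1 to 42 UMIs (median 11) and from 1 to 67 (median 9.5). C1QA, which encodes the remaining chain, was not listed under that symbol and was not analysed here. Channel 1 also lists 2176 genes by identifier alone, and whether C1QA is among them was not tested. Few barcodes lay near the limit. C1QB was at 3 to 4 UMIs in 14 and 3 barcodes, of which 10 and 3 had a C1QC UMI, and at 5 to 6 UMIs in 3 and 1 members. Another 2 and 5 barcodes had 5 or more C1QB UMIs and no C1QC. The other genes of the C1 complex were close to absent: C1R had no UMI in the members of either channel and C1S had 1 and 0, while SERPING1, the inhibitor of C1, had 6 and 7 UMIs in members and 0 in CFD-high cells.

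The members fell into 2 kinds by CFD, a gene the rule for C1Q cells did not use. In channel 1, 26 members had under 10 CFD UMIs, 22 had 40 or more, and 6 lay between (5 with 10 to 19 and 1 with 20 to 39). In channel 2 the same ranges held 22, 27 and 5 members. The CFD-high cells had a median of 83 and 96 CFD UMIs, and the members with 10 or more had 80 and 79.5. AIF1, a general gene of the macrophage and microglial lineage, had a median of 1.5 and 1 UMIs in members with CFD under 10 and of 9 and 13.5 in the rest. This division at 10 UMIs was made after the values were seen and is described without a test between its sides.

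**Figure D1:**
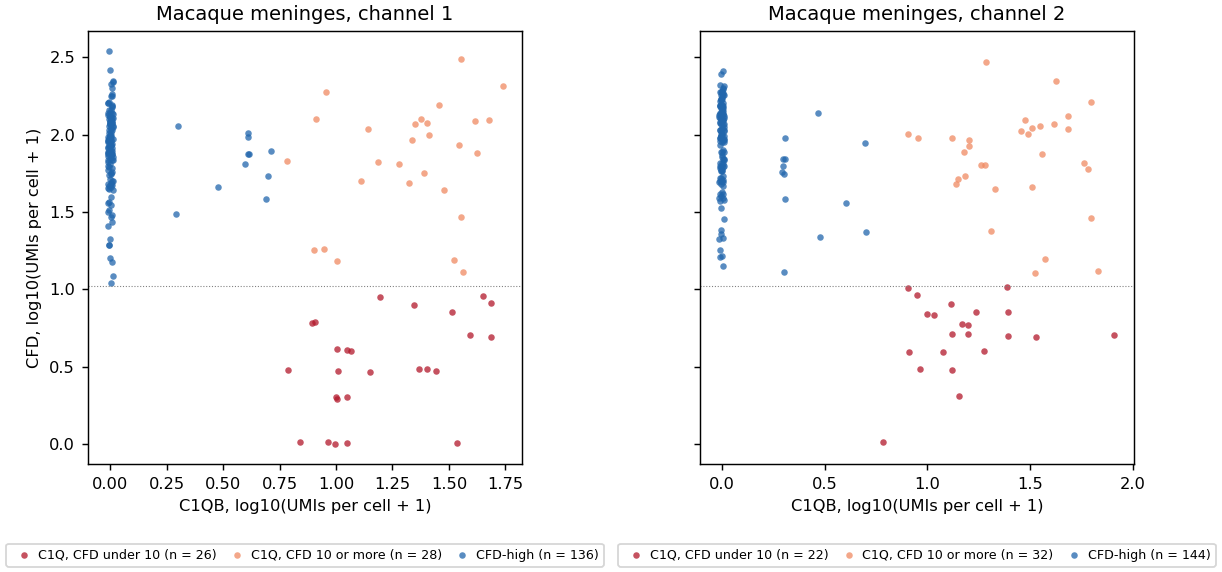
Each point is a cell, with C1QB on the horizontal and CFD on the vertical axis, both as log10(UMIs per cell + 1), for channel 1 (left) and channel 2 (right). The dotted line marks 10 CFD UMIs; 26 and 22 C1Q cells lie under it, and points are jittered slightly to separate ties.

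APOE, the lipid-carrying apolipoprotein that macrophages secrete, divided the members more sharply than CFD did. In channel 1, APOE was present in 30 members, with CFD between 0 and 17 UMIs, and absent from 24, with CFD between 17 and 299. In channel 2, APOE was present in 26 members, with CFD between 0 and 28, and absent from 28, with CFD between 23 and 289. All 26 and 22 members with CFD under 10 had APOE, with a median of 28.5 and 21 UMIs each. Of those with CFD of 10 or more, 4 of 28 and 4 of 32 had it, and these 8 cells had CFD of 12 to 17 and 12 to 28. APOE was in 0 of 136 and 0 of 144 CFD-high cells. Among the other barcodes of the channels, 0.776% and 0.635% had an APOE UMI, at median depths of 4016 and 3958 UMIs. These can include barcodes just under the C1QB limit, and the level of free RNA was not estimated.

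Genes of border-associated macrophages followed APOE. FOLR2, a folate receptor that marks resident macrophages, was in 24 of the 30 APOE members of channel 1 and in 24 of the 26 of channel 2, and in none of the members without APOE. CD163, the haemoglobin scavenger receptor, was in 20 and 21 members with APOE and in 0 and 0 without it. MRC1 was in 16 and 13 with APOE and in 1 and 0 without it. The clearance receptor STAB1 was in 12 and 12 with APOE and in none without it, and LYVE1, the hyaluronan receptor of perivascular and dural macrophages, was in 7 and 6 with APOE and in none without it. Counted over a fixed list of 10 border-macrophage genes (MRC1, CD163, LYVE1, FOLR2, F13A1, STAB1, PF4, SIGLEC1, COLEC12 and TIMD4), 21 of 26 and 18 of 22 members with CFD under 10 carried at least 2 of them. The members with CFD of 10 or more did so in 4 of 28 and 4 of 32 cells, and those were the cells with APOE. No CFD-high cell carried 2 of them. PF4 was at 0 in members, and TIMD4 was not listed in the tables.

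**Figure D2:**
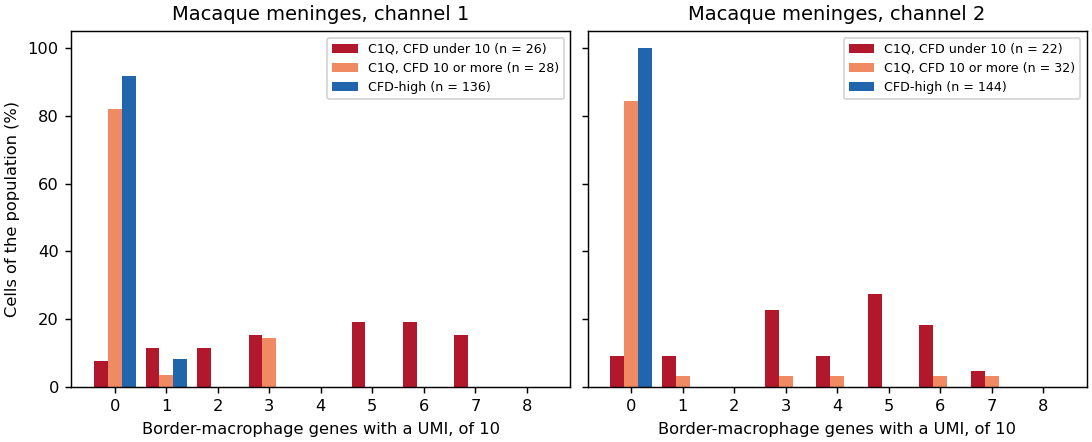
Bars give the percentage of cells (vertical axis, from 0) that carried a UMI of 0 to 8 of the 10 border-macrophage genes (horizontal axis), in channel 1 (left) and channel 2 (right). C1Q cells with CFD under 10 spread up to 7 genes, while 24 of 28 and 28 of 32 C1Q cells with CFD of 10 or more carried fewer than 2.

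Several genes of monocytes and leukocyte adhesion ran opposite to APOE, although the monocyte list as a whole was divided: of its 4 genes with at least 10 UMIs in the members, 2 were higher with CFD under 10 and 2 with CFD of 10 or more. S100A4, a calcium-binding protein abundant in monocytes, was in 24 of 24 and 28 of 28 members without APOE, at 7035 and 7103 CPM (UMIs per 1000000 UMIs of the summed cells), against 7142 and 6871 in CFD-high cells. In members with APOE it was in 4 of 30 and 1 of 26, at 179 and 11.4 CPM. S100A6 showed the same order: 24 and 28 members without APOE carried it, and 5 and 3 with APOE. The transcription factor TCF7L2 was in 23 and 28 members without APOE and in 4 and 6 with it. ITGB2, the shared beta chain of the leukocyte integrins, was in all 24 and 28 members without APOE and in 6 and 4 with it. CX3CR1, the fractalkine receptor, was in 10 and 17 members without APOE and in 2 and 1 with it. CD14, the lipopolysaccharide co-receptor, went the other way, in 23 and 22 members with APOE and in 1 and 0 without it. APOBEC3B, a cytidine deaminase, was in 0 and 0 members with APOE and stood at 120 and 82.3 CPM in members without it, under the 250 and 239 of CFD-high cells.

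C1q itself was present on both sides. C1QB stood at 6012 and 6543 CPM in members with APOE and at 3514 and 3529 in members without it, against 32.4 and 23.3 in CFD-high cells. C1QC stood at 4527 and 5479 CPM with APOE and at 1496 and 1143 without it. The macrophage label thus covers members that differ in most markers of resident macrophages. The general macrophage genes CSF1R, CD68 and MS4A7 were found on both sides: CSF1R, the receptor for macrophage colony-stimulating factor, was in 21 of 30 and 20 of 26 members with APOE and in 20 of 24 and 26 of 28 without it, and the lysosomal glycoprotein CD68 was in 23 and 25 with APOE and in 21 and 26 without it. CFD-high cells also carried them, with CSF1R in 113 of 136 and 115 of 144 and CD68 in 120 and 118. Of the 10 border-macrophage genes, members without APOE carried a UMI of MRC1 in 1 cell of channel 1 and of F13A1 in 1 cell of channel 2, and of no other.

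**Figure D3:**
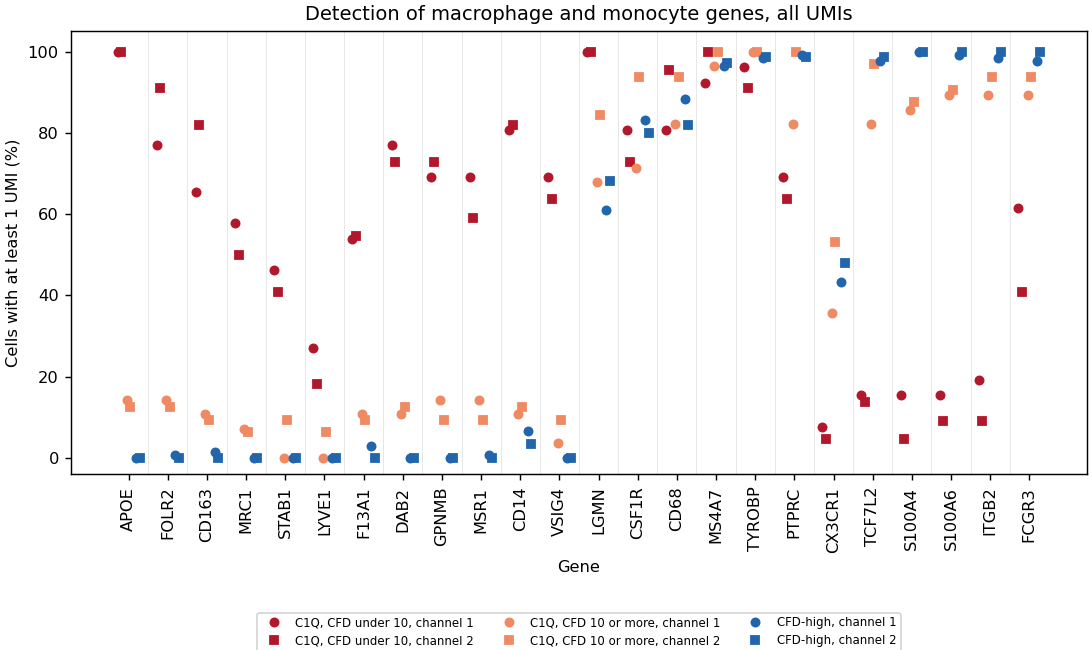
Points give the percentage of cells with at least 1 UMI (vertical axis) for 24 genes (horizontal axis) in C1Q cells with CFD under 10, C1Q cells with CFD of 10 or more and CFD-high cells, with circles for channel 1 and squares for channel 2. APOE was in 100% of C1Q cells with CFD under 10 in both channels, in 14.3% and 12.5% of those with CFD of 10 or more and in no CFD-high cell, and S100A4 ran the other way.

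The gene lists were also counted between the 2 sides of 10 CFD UMIs. Among genes with at least 10 UMIs in the members, 24.6% of 5707 were higher in members with CFD under 10 with no overlap between channels, and 30.2% were lower. In the border-associated macrophage list 13 of 13 were higher, in the immediate early list 18 of 21, in the lipid handling list 8 of 10 and in the chemokine list 7 of 9, with none lower in any of these 4 lists. Uptake receptors were higher in 11 of 14 and lower in 2, and of 26 lysosomal genes 17 were higher and 6 lower. Glycolysis genes ran the other way, with 9 of 13 lower and 1 higher. The T and NK genes overlapped in 7 of 7.

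Depth differed between the 2 kinds of member. Members with CFD under 10 had a median of 3220 and 2450.5 UMIs per cell, those with 10 or more had 6794 and 7219, and CFD-high cells had 7166 and 6853. After each cell was thinned to 1000 UMIs, which left out 3 shallower members in each channel, APOE was in 22 of 23 and 18 of 19 members with CFD under 10, in 4 of 28 and 4 of 32 of those with CFD of 10 or more, and in no CFD-high cell. S100A4 after thinning was in 3 of 23 and 0 of 19, in 24 of 28 and 27 of 32, and in 136 of 136 and 140 of 144. FOLR2 after thinning was in 12 of 23 and 14 of 19 members with CFD under 10 and in 3 and 3 of those with more. The order was thus the same at equal depth. No member was marked as a doublet by Scrublet, the highest mitochondrial share was 1.11% of UMIs, and the members of the channels shared no barcode.

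For the comparison across genes, the UMIs of all members were summed per channel and set against the sums of CFD-high cells from the same channels. The 4 sums held 261437 and 306213 UMIs for C1Q cells and 956816 and 987925 for CFD-high cells. Because each C1Q sum mixes both kinds of member, a fold change is an average over them. Of 5905 genes tested (edgeR quasi-likelihood test, channel as a block, Benjamini-Hochberg adjusted p under 0.05), 477 differed, which is 8.08% of genes. These were 369 higher in C1Q cells (6.25%) and 108 lower (1.83%), and the median log2 fold change over all tested genes was -0.00050. Of the 369, 32 had no UMI in CFD-high cells. They passed the filter on low counts through the C1Q sums alone and could only be higher. They are thus described by their UMIs and a lower bound, with no p. The list counts below include such genes, 9 in the border-associated list and 6 among the uptake receptors. The lipid handling, lysosomal, chemokine, cytokine, macrophage transcription factor, complement and B-lineage support lists each held 1. DESeq2 on the same sums called 104 of the 5905 genes, of which 103 were higher and 1, APOBEC3B, lower. By list it called 6 of 13 border-associated genes higher, 5 of 13 uptake receptors, 4 of 7 chemokines, 8 of 21 immediate early genes, 5 of 26 lysosomal genes and 2 of 9 iron and haem genes. The border-associated calls include LYVE1, STAB1 and MAF, and the uptake calls AXL, CD36 and STAB1. These genes had no UMI in CFD-high cells and could only be higher. In fits added after the values were seen, members of CFD under 10 alone were set against CFD-high cells. Of 5592 genes 1283 were called, 637 higher (11.4%) and 646 lower (11.6%). These members lie under the CFD limit that chose the CFD-high cells. The groups were thus partly built to differ, and the counts are a description. With members of CFD 10 or more against the same cells, 39 were called, 38 higher (0.68%) and 1, APOBEC3B, lower (0.0179%). The rises included APOE, FOLR2, CD163 and DAB2, which in these members came from the 8 cells with APOE. The smallest adjusted p belonged to a gene without a symbol, ENSMMUG00000063725 (log2 fold change 7.54 ± 0.21). Its log2 fold change with CFD under 10 was 8.34 ± 0.29, so it was higher on both sides of the CFD limit.

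Of the genes with the largest rises, APOE, DAB2, GPNMB and PLAU had no UMI in CFD-high cells. The others had some there, up to 26 and 74 UMIs for RGS1. APOE had 1172 and 842 UMIs in C1Q cells (4483 and 2750 CPM) and 0 in the CFD-high cells of both channels. Against the floor of 3 UMIs over the group it was at least 2300-fold higher. DAB2, an endocytic adaptor, had 189 and 172 UMIs against 0 and 0 and was at least 412-fold higher. GPNMB, a lysosomal membrane glycoprotein, had 124 and 146 against 0 and 0 and was at least 308-fold higher. These 3 genes were absent from every CFD-high cell and present in both channels of C1Q cells. PLAU, the urokinase protease, had 188 and 31 UMIs against 0 and 0 (at least 250-fold higher), so its level differed between channels, 719 against 101 CPM. PLD3, a lysosomal nuclease, had 51 and 63 UMIs against 6 and 5 (log2 fold change 5.12 ± 0.34), and MARCKS, a membrane-bound kinase substrate, had 44 and 76 against 12 and 8 (4.33 ± 0.32). DESeq2 made no call for DAB2, GPNMB or PLAU.

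**Figure D4:**
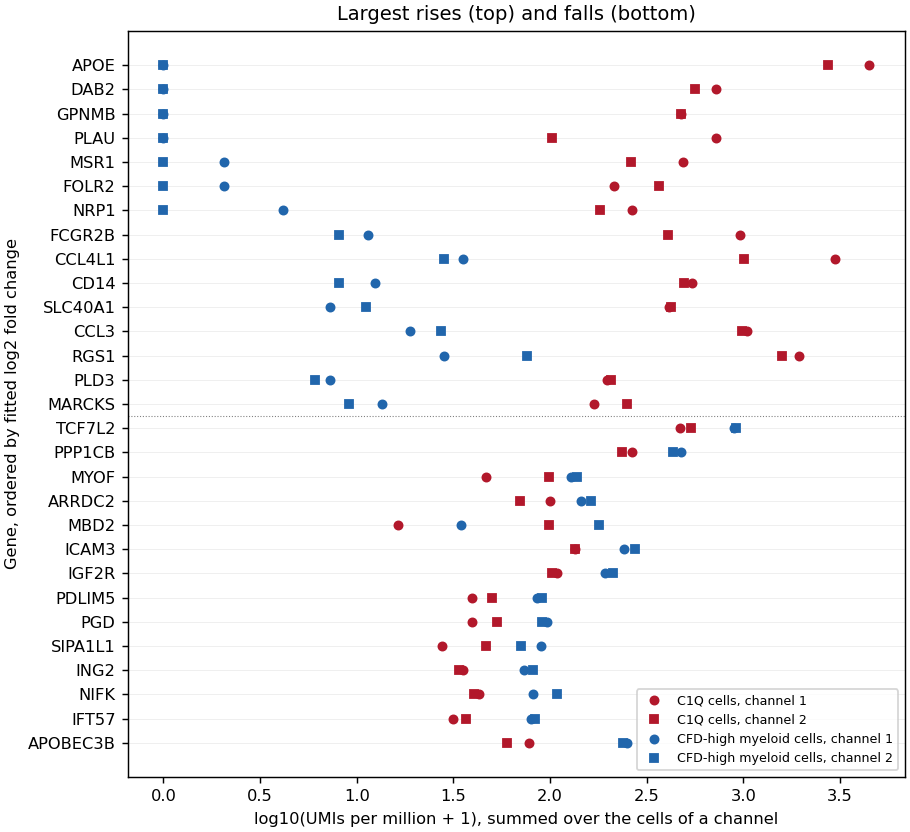
Points give log10(CPM + 1) of the genes with the largest rises and falls (vertical axis, ordered by fitted log2 fold change) in the summed C1Q cells and CFD-high cells, with circles for channel 1 and squares for channel 2. APOE, DAB2, GPNMB and PLAU sit at 0 in CFD-high cells, and the falls are small beside the rises in these sums.

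Of the border-associated macrophage list, 13 of 18 genes passed the filter on low counts and 13 of the 13 were higher in C1Q cells. Of these, 9 had no UMI in CFD-high cells and so could pass the filter only through the C1Q sums, and this count is a description. The median log2 fold change of the list was 8.65 as fitted, and 5.72 with those 9 genes at their lower bound. MRC1 had 45 and 50 UMIs in C1Q cells and 0 and 0 in CFD-high cells, at least 108-fold higher, a gene DESeq2 did not call. CD163 had 48 and 65 UMIs against 3 and 0, a ratio of 129 with an exact 95% counting interval of 43.0 to 635. STAB1 had 25 and 29 UMIs against none (at least 61.7-fold higher), and LYVE1 had 15 and 18 against none (at least 37.7-fold higher). FOLR2 had 56 and 112 UMIs against 1 and 0, a ratio of 576 (102 to 22867). F13A1, a transglutaminase subunit made by resident macrophages, had 27 and 30 against 4 and 0 (log2 fold change 5.53 ± 0.55, SE). In each of these genes both C1Q sums lay above both CFD-high sums.

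Receptors that take up debris, lipoproteins and antibody complexes were higher in 9 of 13 tested genes of their list and lower in 1, with a median log2 fold change of 7.34 (5.51 with genes absent from CFD-high cells at their bound). Of these 13 genes, 6 had no UMI in CFD-high cells and could only be higher, so the count is a description. MSR1, the class A scavenger receptor, had 127 and 80 UMIs against 1 and 0, a ratio of 709 (126 to 28144). FCGR2B, the inhibitory receptor for immunoglobulin G, stood at 964 and 405 CPM against 10.5 and 7.09 (log2 fold change 6.26 ± 0.24). CD36 had 17 and 23 UMIs against none, and AXL, a receptor for apoptotic cells, had 8 and 10 against none. The bridging ligand GAS6 had 19 and 27 against none. NRP1, a co-receptor of vascular growth factors that is on neither list, had 69 and 55 UMIs against 3 and 0, a ratio of 142 (47.3 to 696). FCGR3, the low-affinity CD16 receptor of patrolling monocytes and NK cells, was the gene lower in C1Q cells, at 1538 and 1930 CPM against 2352 and 2177 (log2 fold change -0.36 ± 0.10, adjusted p = 0.012). In members with APOE alone FCGR3 stood at 432 and 629 CPM, and in members without it at 2169 and 2450.

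Of 26 lysosomal and cathepsin genes tested, 12 were higher and 1 was lower, with a median log2 fold change of 0.49. LGMN, the lysosomal asparaginyl endopeptidase, stood at 838 and 1087 CPM against 176 and 225 (log2 fold change 2.29 ± 0.13, adjusted p = 1.1e-14). LIPA, which hydrolyses cholesteryl esters in lysosomes, stood at 203 and 186 against 55.4 and 45.5 (1.97 ± 0.23). CST3, the cathepsin inhibitor cystatin C, stood at 1216 and 1065 against 369 and 247 (1.93 ± 0.13). These rises belonged to APOE members: CST3 was at 2737 and 3157 CPM in them and at 348 and 229 in members without APOE. CTSS, the cathepsin that trims the class II invariant chain, was lower (log2 fold change -0.30 ± 0.08, adjusted p = 0.020), at 958 and 1281 CPM in APOE members and 2691 and 2528 in the others. Of the lipid handling genes 3 of 8 tested were higher, APOE, the cholesterol exporter ABCA1 and the fatty acid binding protein FABP5, and none was lower (median 0.67). APOE had no UMI in CFD-high cells and could only be higher, so the count is in part a description.

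Of 9 iron and haem genes tested, 5 were higher and none was lower (median log2 fold change 0.76). SLC40A1, which encodes the iron exporter ferroportin, stood at 409 and 421 CPM against 6.27 and 10.1 (log2 fold change 5.65 ± 0.27, adjusted p = 6.6e-17). HMOX1, haem oxygenase, stood at 237 and 245 against 99.3 and 107 (1.24 ± 0.20). With CD163 the list thus had higher levels of genes for haemoglobin uptake, haem breakdown and iron export in the same sums. SLC40A1 was in 20 and 21 members with APOE and in 5 and 2 without it, while HMOX1 was in 11 and 9 with APOE and in 10 and 10 without it. These detection counts are not adjusted for depth. In the fits by CFD made after the values were seen, HMOX1 had a log2 fold change of 2.37 ± 0.31 with CFD under 10. With CFD of 10 or more it was 0.32 ± 0.27.

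Complement genes outside the C1 complex moved in both directions: 3 of 12 tested were higher and 2 lower, with a median of 0.18. VSIG4, a receptor for C3 fragments on resident macrophages, had 32 and 50 UMIs against none and was at least 93.6-fold higher, though DESeq2 did not call it. CD59, which blocks the membrane attack complex, stood at 168 and 124 CPM against 19.9 and 15.2 (log2 fold change 3.07 ± 0.31). ITGAM, which encodes CD11b, had 11 and 11 UMIs against 15 and 9 (log2 fold change 1.69 ± 0.49, adjusted p = 0.028) and was in 7 of 54 members of each channel. CFP, the alternative-pathway stabiliser properdin, was lower at 654 and 611 CPM against 945 and 918 (-0.53 ± 0.12), and ITGB2 was lower at 715 and 967 against 1292 and 1341 (-0.63 ± 0.11). In members with APOE, CFP stood at 63.2 and 68.6 CPM.

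Chemokine genes were higher in 6 of 7 tested, with a median log2 fold change of 5.91. CCL3 stood at 1040 and 986 CPM against 17.8 and 26.3 (log2 fold change 5.53 ± 0.19, adjusted p = 9.7e-21). CCL4L1, a close copy of CCL4 that may share reads with it, stood at 2972 and 1009 against 34.5 and 27.3 (5.94 ± 0.18). CXCL8, the neutrophil chemokine, had 18 and 17 UMIs against 1 and 0. CCL8 had 13 and 57 UMIs against none, so its level differed between channels. CCL3 was in 12 and 13 members with APOE and in 3 and 5 without it. RGS1, a regulator of chemokine receptor signalling, stood at 1939 and 1581 CPM against 27.2 and 74.9 (5.13 ± 0.21), with 5264 and 5456 in APOE members and 42.1 and 32.0 in the others. Of 11 cytokine genes tested, IL18, OSM and VEGFA were higher, a count of 3, and none was lower (median 0.14), with IL1B not past the threshold (log2 fold change 0.14 ± 0.11, adjusted p = 0.54).

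Immediate early genes are the transcripts cells make within minutes of a stimulus. Of 21 tested, 16 were higher and none was lower, with a median of 0.90. FOS stood at 3875 and 5029 CPM against 987 and 968 (log2 fold change 2.20 ± 0.09, adjusted p = 1.1e-18), and JUN at 1974 and 2877 against 338 and 80.0 (3.72 ± 0.26). FOS was at 8433 and 14732 CPM in APOE members and at 1274 and 1152 in the others. Tissue dissociation can induce these genes, and its part in the result was not tested. Heat shock genes were higher in 4 of 13 (median 0.18), type I interferon genes in 4 of 14 (0.09), and NF-kB feedback genes in 4 of 12 with 1, BCL2A1, lower (0.15). Metallothioneins were higher in 2 of 3 (median 0.39), but MT1E overlapped between the populations across channels.

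Transcription factors of macrophages were higher in 6 of 12 tested and lower in none (median 0.52). MAF, which supports resident macrophage identity, had 8 and 8 UMIs against none (at least 18.3-fold higher). The lineage factor SPI1 stood at 34.4 and 32.7 CPM against 46.0 and 40.5 (log2 fold change -0.34 ± 0.39, adjusted p = 0.74) and did not pass the test. Growth factor receptors were higher in 2 of 11 (CSF1R and IL6R) and lower in none (median 0.36). CSF1R stood at 566 and 696 CPM against 302 and 321 (log2 fold change 1.04 ± 0.14, adjusted p = 1.1e-06). The level was 1106 and 1476 CPM in APOE members and 258 and 384 in the others. CD68 (0.57 ± 0.13) and MS4A7 (0.37 ± 0.10) were also higher, while the adaptor TYROBP (0.15 ± 0.10, adjusted p = 0.44) and PTPRC, which encodes CD45 (-0.21 ± 0.11, adjusted p = 0.30), were not past the threshold.

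Of 8 class II antigen presentation genes tested, 2, the co-stimulators CD80 and CD86, were higher, and none was lower (median 0.10). Among genes that support B-lineage cells, 3 of 10 were tested and only IGF1 was called. It had 33 and 52 UMIs in C1Q cells and none in CFD-high cells, at least 97.1-fold higher. IGF1 could thus only be higher, and the count is a description. IGF1 was in 14 of 30 and 18 of 26 members with APOE and in 0 and 0 without it. CXCL12, IL7 and the other genes of that list did not pass the filter on low counts. Of the microglia list, 2 of 4 tested genes were higher (GPR34 and P2RY13, median 1.06). GPR34, a lysophospholipid receptor, had 32 and 81 UMIs against 0 and 1. P2RY12 had 6 and 5 UMIs against 0 and 0, and TMEM119 and SALL1 were not listed. CX3CR1 stood at 84.2 and 137 CPM against 153 and 144 (log2 fold change -0.39 ± 0.24, adjusted p = 0.41). TREM2, the lipid-sensing receptor, had 3 UMIs in channel 1 and 0 in channel 2.

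**Figure D5:**
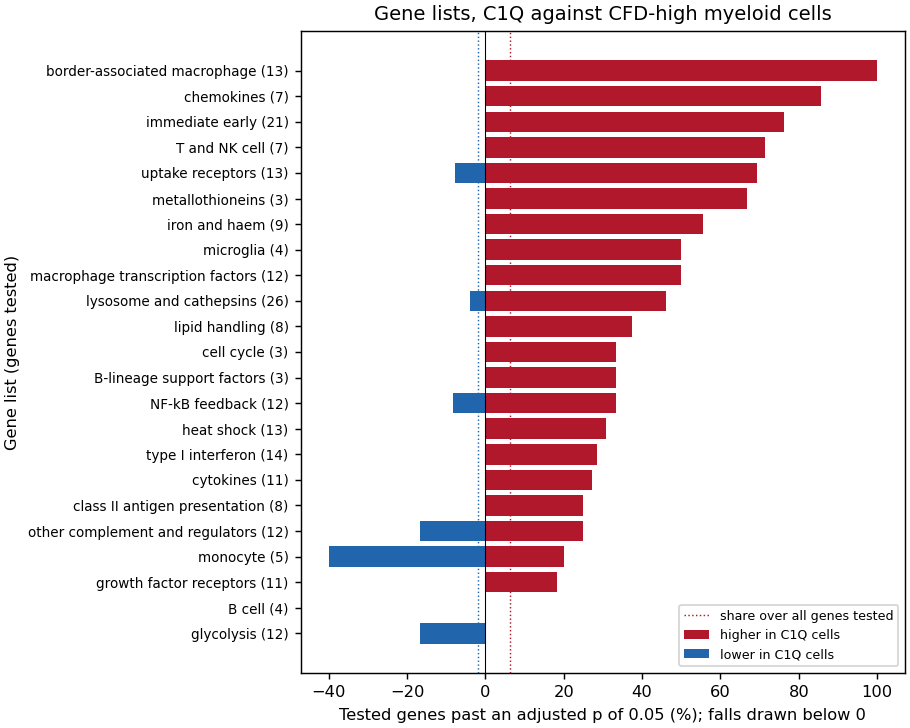
Bars give, for each gene list with at least 3 tested genes (number in brackets), the percentage of its tested genes that were higher (right) or lower (left) in C1Q cells at an adjusted p under 0.05. Dotted lines mark the shares over all tested genes, 6.25% higher and 1.83% lower; the border-associated list reached 100%, but 9 of its 13 genes and 6 of the 13 uptake receptors had no UMI in CFD-high cells and could only be higher, so the bars are a description.

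In the sums of all members, falls were fewer and smaller than rises. With members of CFD under 10 alone they were as many (646 lower, 637 higher) and larger. The log2 fold changes were -6.04 for S100A4, -6.58 for S100A6 and -4.15 for TCF7L2. That split was made after the values were seen, at the CFD limit that chose the CFD-high cells, so these values are a description. DESeq2 called none of the falls in the sums of all members except APOBEC3B, so the calls below hold for edgeR alone. APOBEC3B, the largest of the named falls, stood at 76.5 and 58.8 CPM against 250 and 239 (log2 fold change -1.84 ± 0.23, adjusted p = 5.3e-07), and had no UMI in APOE members. TCF7L2 stood at 467 and 532 against 893 and 919 (-0.83 ± 0.12). ICAM3, a leukocyte adhesion molecule, stood at 134 and 134 against 240 and 274 (-0.92 ± 0.20). IGF2R, the mannose-6-phosphate receptor, stood at 107 and 101 against 191 and 211 (-0.93 ± 0.22). Other falls, IFT57, NIFK, ING2, SIPA1L1, PGD, PDLIM5, MBD2, ARRDC2, MYOF and PPP1CB, lay between -1.25 and -0.84, and MBD2 overlapped between the populations across channels. The monocyte list had 5 tested genes, of which S100A4 (-0.52 ± 0.07) and S100A6 (-0.58 ± 0.08) were lower and CD14 was higher at 539 and 490 CPM against 11.5 and 7.09 (5.79 ± 0.25, adjusted p = 3.4e-18). Of 12 glycolysis genes, ALDOA and PGK1 were lower, a count of 2, and none was higher (median -0.10).

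Markers of some other cells were near 0 in the members, while those of others were found in many of them. S100A9 and CCR2 had no UMI in members of either channel, nor did the mast cell genes CPA3, KIT and MS4A2. S100A8 had none in channel 1 and was not listed in channel 2, and S100A12, FCN1 and HDC were not listed in either table. The stromal genes of the list summed to 7.65 and 19.6 CPM. The B cell, dendritic, neutrophil, vascular, erythroid and cell cycle lists had 4, 2, 1, 2, 1 and 3 tested genes, of which only CENPF was called, higher in C1Q cells with channels that overlapped. The plasma, stromal and mast cell lists had no gene that passed the filter. T and NK genes were the exception among the calls: 5 of 7 tested (NKG7, GZMB, GZMA, PRF1 and CCL5) were higher, with a median of 1.61. Their 6 marker genes summed to 203 and 425 CPM in C1Q cells against 52.3 and 93.1 in CFD-high cells, with CD3E at 2 and 1 UMIs. NKG7 was in 5 and 7 members, and 3 and 3 members carried at least 2 of the markers. With cells carrying 2 or more lymphocyte genes left out, which removed 3 and 4 members, none of the list's genes passed the filter. These calls were thus not tested without the cells left out, and their dependence on those cells was not tested. NKG7 and CD3E were among the genes that chose those cells, so a loss of NKG7 was partly built in. NKG7 then had 2 and 14 UMIs in C1Q cells against 6 and 5 in CFD-high cells, and GZMB 5 and 2 against 9 and 9. These are raw UMIs from 51 and 50 members and from 133 and 133 CFD-high cells, so they are not levels per cell. CCL5 of the chemokine count and MAF of the transcription factor count were also untested there. Without those cells the border-associated list had 12 of 12 tested genes higher and the immediate early list 15 of 21. Over all genes 439 were called, and 349 of 5579 tested were higher. Of the 13 border-associated genes tested with all members, 9 had no UMI in CFD-high cells and could only be higher. The 12 of 12 is thus a description.

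In the spleen channels the same rule found 2 of 5839 and 2 of 6783 barcodes (0.0343% and 0.0295%), too few for a comparison. CFD was present in all 4, at 23 and 120 UMIs in sum, and APOE in 1 of 2 and 0 of 2. MRC1 and CD163 were not listed in the spleen tables.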

How the data were processed

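Single-cell 3′ libraries of macaque meninges were analysed from the deposited tables of raw UMI counts, which the authors produced in Cell Ranger; the submitters' processing notes list mm10 as the build of every library. For macaque, a reference was not given in the sources used here. Each table lists genes seen in at least 3 barcodes, and a gene not listed counted as 0. The meninges tables hold 19018146 and 19763332 UMIs. UMIs were summed per channel and population and tested with edgeR 4.0.16 (R 4.3.3; TMM, filterByExpr, quasi-likelihood test, channel as a block because both populations came from the same channel; 1 residual degree of freedom), with Benjamini-Hochberg adjustment over all genes at 0.05. C1QB, C1QC, CFD and AIF1 chose the cells and were not tested. Named genes are the 15 largest rises and falls at a log2 CPM averaging 6 or more and the same sign in both channels, up to 4 per list, and a fixed list of markers. Some of these genes are not reported here. Members and lists were chosen with earlier results of these data known. Folds against 0 use a floor of 3 UMIs over the group; intervals cover counting error only. In simulated sums the test recovered most 4-fold changes planted in genes at or above the median count. That gives no rate for genes with fewer UMIs, and smaller planted changes are not reported here. Alternatives were no block, DESeq2 1.42.0, no filter, thinning to 1000 UMIs, cell filters (scanpy 1.11.5), a higher C1QB limit and, added after the data were seen, members split by CFD.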

Additional observations from a re-analysis of the deposited data

How the results depend on the processing

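The count of 477 called genes (77.4% of them higher in C1Q cells) was 368 without the channel as a replicate block (304 higher, 64 lower), 104 with DESeq2 (103 and 1), 676 with no filter on low counts (378 and 298), 182 with cells thinned to 1000 UMIs (153 and 29), 204 at a C1QB limit of 10 (189 and 15), 462 without cells marked by Scrublet (371 and 91) and 439 without cells with lymphocyte genes (349 and 90). It was 1184 for members with CFD under 10 against CFD-high cells with C1QB at 0 (590 and 594). In splits added after seeing the data, it was 1283 for CFD under 10 (637 and 646) and 39 for the rest (38 and 1). Members with CFD under 10 lie under the CFD limit that chose the CFD-high cells, so their counts are a description. The cause of the differences between settings was not tested. Thinning also leaves fewer genes, 1623. The share of members was 0.934% in channel 1 at a C1QB limit of 10, and 0.648% and 0.670% in channels 1 and 2 after thinning.

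Single genes that changed sign were CENPF (-0.48 and -0.36) and MT1E (-0.18 and -0.12) with CFD under 10, against CFD-high cells with C1QB at 0 and against all of them in that order, and, with CFD of 10 or more, HSP90AA1 (-0.071), IFIT2 (-0.31), MT1X (-0.44), OSM (-1.05) and TNFAIP3 (-0.43). Of 98 named genes, DESeq2 lost 57 calls, the C1QB limit of 10 lost 26 and left 5 untested, and the fit without the block lost 16. Thinning left 42 untested and lost 12 of the other 56. With CFD of 10 or more, 22 were untested, 43 lost their call and 5, named above, changed sign. Leaving out cells with lymphocyte genes left 6 untested and lost 5. With 1 channel left out no residual degree of freedom remained, so no count was made. The comparison with dendritic-type cells was not run, since the channels held 13 and 17 of them, under the minimum of 20. With 54 members a channel, genes with few UMIs fell under the filter; with no filter, 244 further genes were called, of which 61 had not been tested with it.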
